A study of Mus musculus with 8 samples.

Results

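Levels of microRNAs (miRNAs) in purified liver mitochondria were set against those of whole liver in mice fed ad libitum (AL). The comparison uses 4 of the 8 libraries of the series: 3 libraries of AL mitochondrial RNA (AM1, AM2 and AM3, here replicates 1 to 3) and 1 library of AL whole liver (ATL). The remaining 4 libraries, which hold the same fractions from mice under caloric restriction (CR), enter only where stated. The animals were male wild-type C57BL/6J mice, 8 weeks old at the start, housed individually and kept on free feeding for 12 weeks, so both AL groups share strain, sex, age and diet. The whole-liver library was made from equal amounts of 3 RNA samples extracted directly with Trizol, and is called the pool below. The mitochondrial libraries were made from mitochondria isolated by differential centrifugation and purified as mitoplasts, which are mitochondria stripped of the outer membrane. Nothing in the labels ties a mitochondrial library to an animal. The p-values therefore describe the spread among these 3 libraries, which may be technical, and with 1 pool the whole-liver value has no replicate of its own.

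miRNAs are short RNAs that guide Argonaute proteins to messenger RNAs, mainly through the seed, bases 2 to 8 from the 5′ end. They are encoded in the nuclear genome, and a hairpin precursor is cut into a 5p and a 3p arm, of which 1 is usually loaded and the other mostly degraded. miRNAs have also been found in mitochondria of several tissues, where they are often called mitomiRs.

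The mature sequences that the main differences turn on are printed here, with the seed in capitals. They were read from the deposited files and are the same in the RefSeq table for GRCm38.p6. The first set holds both arms of the 6 hairpins whose arm ratio had the smallest p between the fractions.
miR-193a-5p: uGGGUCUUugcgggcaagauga
miR-193a-3p: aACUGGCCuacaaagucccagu
miR-221-5p: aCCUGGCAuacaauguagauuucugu
miR-221-3p: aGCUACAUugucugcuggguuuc
let-7g-5p: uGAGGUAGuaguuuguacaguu
let-7g-3p: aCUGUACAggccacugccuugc
miR-335-5p: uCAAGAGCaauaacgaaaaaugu
miR-335-3p: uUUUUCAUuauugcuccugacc
miR-872-5p: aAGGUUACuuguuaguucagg
miR-872-3p: uGAACUAUugcaguagccuccu
miR-361-5p: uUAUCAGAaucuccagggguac
miR-361-3p: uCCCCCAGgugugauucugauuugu

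The second set holds pairs with the same seed and nearly the same sequence, of which 1 member was higher in mitochondria and the other did not pass the test.
miR-146a-5p: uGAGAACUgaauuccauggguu
miR-146b-5p: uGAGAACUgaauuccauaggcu
miR-29c-3p: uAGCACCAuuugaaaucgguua
miR-29a-3p: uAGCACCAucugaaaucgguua
miR-10b-5p: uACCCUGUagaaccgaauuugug
miR-10a-5p: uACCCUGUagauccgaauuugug

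The third set holds relatives from the miR-99 and miR-125 groups that were all lower in mitochondria, and miR-6481, the name with the largest difference.
miR-99a-5p: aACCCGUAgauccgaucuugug
miR-100-5p: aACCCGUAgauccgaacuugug
miR-125a-5p: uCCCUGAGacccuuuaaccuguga
miR-125b-5p: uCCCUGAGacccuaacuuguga
miR-6481: cACUGAAAaugcuuagaug

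Values are RPM, the reads assigned to miRNAs scaled to a total of 1000000 in each library, so a level is a share of its library and says nothing of the amount of RNA per mitochondrion or per cell. The pool held 2431564 miRNA reads, and the mitochondrial libraries held 1083328, 1095018 and 1422418. A level of 3 reads, the floor used here for a count of 0, was 1.23 RPM in the pool and 2.11 to 2.77 RPM in the mitochondrial libraries. Of 754 names listed in the AL libraries, 352 were in all 4 libraries, 117 only in the pool and 157 only in mitochondria. No name with at least 5 RPM in the pool was at 0 in all mitochondrial libraries. Among names at 0 in the pool, 3 had a mitochondrial mean of at least 5 RPM: miR-136-5p and miR-3071-3p, which lie antisense to each other and share the same reads (3, 14 and 5), and an unannotated candidate.

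Of 281 miRNAs tested, 71 (25.3%) differed between AL mitochondria and the AL pool at an adjusted p below 0.05 (limma on log2(RPM + 1), Benjamini-Hochberg adjustment). Of these, 24 (8.54%) were higher and 47 (16.7%) were lower in mitochondria. All 3 mitochondrial libraries lay above the pool for 82 miRNAs (29.2%) and below it for 145 (51.6%). The split depended on the scaling. The median log2 difference of all tested miRNAs was -0.39 on RPM, -0.05 on RPM recomputed without miR-122 and -0.06 with DESeq2 size factors. With these factors 26 were higher and 19 lower, 45 in all, of which 43 were among the 71 in the same direction. Leaving out mitochondrial replicate 1 gave 130 calls, leaving out replicate 2 gave 38, and leaving out replicate 3 gave 17. These 17 were all among the 71, in the same direction. They were miR-146a-5p, miR-6481, let-7g-3p, miR-324-5p and novel_315, higher, and miR-221-5p, miR-744-5p, miR-361-3p, miR-872-5p, miR-335-3p, miR-193a-5p, miR-340-3p, miR-1191a, miR-671-3p, miR-200b-3p, miR-598-3p and miR-224-5p, lower. Any other call on a single miRNA given below was lost without replicate 3. A miRNA near 0 in 1 fraction was tested only if its level in the other was high enough. A large difference was thus built into its entry. Among the 17 this holds for miR-6481, let-7g-3p, miR-324-5p, the unannotated candidate, miR-221-5p, miR-1191a and miR-671-3p, among others. Across the 281 miRNAs the mitochondrial libraries had pairwise Pearson r of 0.96 to 0.98 on the log2 scale and r of 0.86 to 0.91 with the pool, a description of miRNAs that share libraries.

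**Figure D1:**
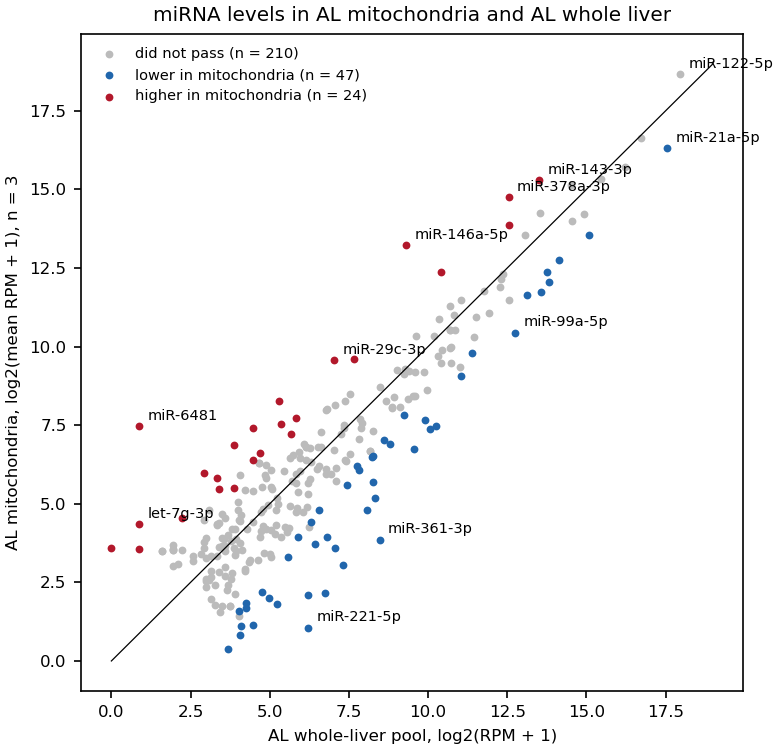
Each point is 1 of the 281 tested miRNAs, with log2(RPM + 1) in the AL whole-liver pool on the x axis and log2 of the mean RPM + 1 of the 3 AL mitochondrial libraries on the y axis. The line marks equal levels, and the 24 miRNAs that were higher and the 47 that were lower in mitochondria are coloured. miR-146a-5p and miR-6481 lie far above the line and miR-221-5p and miR-361-3p far below it.

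The 6 most abundant miRNAs of each library made 70.9% of the reads in the pool and 73.4% ± 0.967 (SD, n = 3) in mitochondria. miR-122-5p, the miRNA that marks hepatocytes, had 254251 RPM in the pool and 378919, 452582 and 415831 RPM in mitochondria. All 3 mitochondrial libraries lay above the pool, by 0.71 ± 0.31 (log2 difference ± SE), but the difference did not pass (adjusted p = 0.123). Both arms of miR-122 together made 25.5% of the reads in the pool (95% exact Clopper-Pearson interval 25.4 to 25.6, which covers counting error only) and 41.6% ± 3.67 (SD, n = 3) in mitochondria. miR-21a-5p, a broadly expressed miRNA that rises with growth and injury, had 190493 RPM in the pool and 112736, 69656 and 62267 RPM in mitochondria. Every mitochondrial library lay below the pool, and miR-21a-5p fell by 1.27 on the log2 scale (SE 0.40, adjusted p = 0.0425). That call was lost with DESeq2 size factors (adjusted p = 0.129) and without replicate 2 or 3 (0.220 and 0.342). miR-148a-3p, miR-192-5p and miR-30a-5p, further abundant liver miRNAs, had log2 differences of -0.13, -0.51 and -0.11 and did not pass. The differences of miR-148a-3p and miR-30a-5p turned positive (0.20 and 0.23) with DESeq2 size factors.

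miR-143-3p is known from smooth muscle and stellate cells and from insulin signalling. Of the 6 most abundant miRNAs of either fraction, only miR-143-3p was higher in mitochondria and passed the test. It had 11712 RPM in the pool and 32532, 42974 and 44651 RPM in mitochondria, with no overlap. The log2 difference was 1.76 ± 0.37 (SE, adjusted p = 0.00821), a 3.42-fold higher mean. The call was lost without replicate 2 or 3 (adjusted p = 0.0824 and 0.173). miR-378a-3p, which has been linked to lipid and energy metabolism, rose from 5988 RPM to 27429 ± 13041 RPM (SD, n = 3; log2 difference 2.08, adjusted p = 0.0183), and miR-22-3p from 6045 to 15070 ± 701 RPM (log2 difference 1.32, adjusted p = 0.0254). Both calls were lost without replicate 2 (adjusted p = 0.0960 for miR-378a-3p and 0.108 for miR-22-3p) or replicate 3. miR-378b and miR-378c, near copies of miR-378a-3p that may share its reads, were also higher (log2 differences 1.90 and 1.88).

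miR-146a-5p had the smallest p of all. This miRNA is induced by NF-kappaB and represses the adaptors IRAK1 and TRAF6 in innate immune signalling. Its level was 630 RPM in the pool and 7609, 10435 and 10739 RPM in mitochondria. Each mitochondrial library was more than an order of magnitude above the pool. The mean was 15.2-fold higher, the log2 difference 3.91 ± 0.40 (SE) and the adjusted p 0.000484. It passed under each of the 14 alternatives run, with log2 differences from 3.82 to 4.28. Its hairpin lies at chr11:43374397-43374461 on the minus strand (GRCm38.p6), with no annotated host gene in the sense direction.

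miR-6481 had the largest difference. It had 2 reads (0.823 RPM) in the pool and 46, 420 and 144 reads (42.5, 384 and 101 RPM) in mitochondria. The mitochondrial libraries differed widely among themselves, and all lay above the pool. The log2 difference was 6.04 ± 0.94 (SE, adjusted p = 0.00328), and it was 6.77 without replicate 1 and 5.19 without replicate 2. On summed reads the ratio was 206, with a 95% counting interval of 56.8 to 1705. The annotated hairpin is at chr3:99199344-99199453 on the minus strand, but the 19 bases printed above are also bases 29 to 47 of the 68-base mitochondrial tRNA for phenylalanine, mt-Tf, on the same strand. Reads of the tRNA and of the hairpin cannot be told apart by these letters. The only other AL name whose sequence lies in a mitochondrial transcript, an unannotated candidate that matches the glycine tRNA mt-Tg, had 0 reads in the pool and 1, 1 and 2 in mitochondria.

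let-7g-3p, the lesser arm of a let-7 hairpin in an intron of Wdr82, had 2 reads in the pool and 13, 23 and 36 reads in mitochondria, a mean of 19.4 RPM. All 3 lay above the pool (log2 difference 3.43 ± 0.65 SE, adjusted p = 0.00507), and the ratio of summed reads was 24.3 (95% counting interval 6.49 to 205). miR-324-5p, from an exon of Dvl2, also had 2 reads in the pool and 13, 12 and 13 in mitochondria (log2 difference 2.67, adjusted p = 0.0180, ratio of summed reads 12.8 with interval 3.32 to 109.8). An unannotated candidate, listed as novel_315, had no read in the pool and 11, 18 and 9 reads in mitochondria. Its mean of 11.0 RPM was at least 8.89-fold higher than 3 reads in the pool.

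Next came miR-193a-3p, with 13.6 RPM in the pool and 97.8, 137 and 115 RPM in mitochondria. All 3 libraries lay well above the pool (log2 difference 2.998 ± 0.48 SE, adjusted p = 0.00328). miR-29a-5p, the lesser arm of a hairpin whose other arm is known for repressing collagens, rose from 6.58 RPM to 62.2 ± 22.6 RPM (SD, n = 3; log2 difference 2.99, adjusted p = 0.00498). miR-192-3p, the lesser arm of an abundant hepatocyte miRNA, rose from 20.97 RPM to 171 ± 33.8 RPM (log2 difference 2.95, adjusted p = 0.00328). miR-10b-5p, encoded among the Hoxd genes, had 37.8 RPM in the pool and 181, 399 and 339 RPM in mitochondria, and miR-29c-3p had 129 RPM in the pool and 807, 637 and 822 RPM in mitochondria. Neither overlapped with the pool (log2 differences 2.91 and 2.53, adjusted p = 0.00485 and 0.00328). miR-500-3p and miR-130a-5p were higher by 2.44 and 2.25 (adjusted p = 0.00930 and 0.0239). In this paragraph each call was lost without replicate 3, at adjusted p from 0.0662 for miR-193a-3p to 0.136 for miR-130a-5p and miR-500-3p, and the calls of these last miRNAs also without replicate 2.

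The largest decrease was that of miR-221-5p, the lesser arm of a hairpin on chromosome X whose 3p arm is known for repressing the cell cycle inhibitor p27. It had 178 reads (73.2 RPM) in the pool and 2, 0 and 2 reads in mitochondria. Mitochondrial levels were at or under the floor in all 3 libraries. The log2 difference was -5.29 ± 0.83 (SE, adjusted p = 0.00328), and the pool was 65.9-fold higher on summed reads (95% counting interval 25.3 to 245). The other arm, miR-221-3p, had 357 RPM in the pool and 438, 352 and 468 RPM in mitochondria and did not pass (log2 difference 0.22).

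miR-361-3p, from an intron of Chm, had 355 RPM in the pool and 16.6, 6.39 and 17.6 RPM in mitochondria. The groups were far apart: the log2 difference was -4.73 ± 0.63 (SE, adjusted p = 0.00234), and the pool level was 26.2-fold the mitochondrial mean. miR-744-5p, from an intron of Map2k4, had 107 RPM in the pool and 7.38, 0.913 and 2.11 RPM in mitochondria (log2 difference -4.88, adjusted p = 0.00328, and -5.47 without replicate 1). miR-872-5p, from an intron of Ift74, had 158 RPM in the pool and 12.0, 3.65 and 6.33 RPM in mitochondria (log2 difference -4.38, adjusted p = 0.00328). miR-335-3p, from an intron of the imprinted gene Mest, had 72.8 RPM in the pool and 4.62, 0.913 and 4.22 RPM in mitochondria (log2 difference -4.27, adjusted p = 0.00457). These 4 miRNAs passed without any one of the mitochondrial replicates.

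miR-200b-3p, of an epithelial family that represses ZEB1 and ZEB2, was low in all 3 mitochondrial libraries. It had 269 RPM in the pool and 31.4, 24.7 and 24.6 RPM in mitochondria. The pool was 10.01-fold above the mitochondrial mean, and the mitochondrial libraries lay close together (log2 difference -3.28 ± 0.49 SE, adjusted p = 0.00328, passed under all 14 alternatives run). miR-193a-5p (-3.48), miR-340-3p (-3.44) and miR-365-3p (-3.37) also fell, at adjusted p of 0.0214, 0.00739 and 0.00739; the call of miR-365-3p was lost without replicate 3 (adjusted p = 0.0988) and that of miR-193a-5p with DESeq2 size factors (0.0562). For miR-671-3p the mitochondrial libraries held 0, 1 and 2 reads against 38 in the pool, a ratio of summed reads of 18.8 (95% counting interval 5.95 to 94.98). For miR-1191a they held 0, 1 and 0 reads against 29, a ratio of 42.9 (7.12 to 1754), and this call was lost without replicate 1. The unannotated candidate novel_78 had 132 RPM in the pool and 29.5, 1.83 and 2.11 RPM in mitochondria, so replicate 1 stood apart. Its log2 difference of -4.37 was -5.49 without replicate 1 and -3.78 without replicate 2, and the call was lost without replicate 2 or 3. With DESeq2 size factors the calls of miR-671-3p, miR-1191a and novel_78 were lost (adjusted p = 0.0586, 0.0591 and 0.0781).

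**Figure D2:**
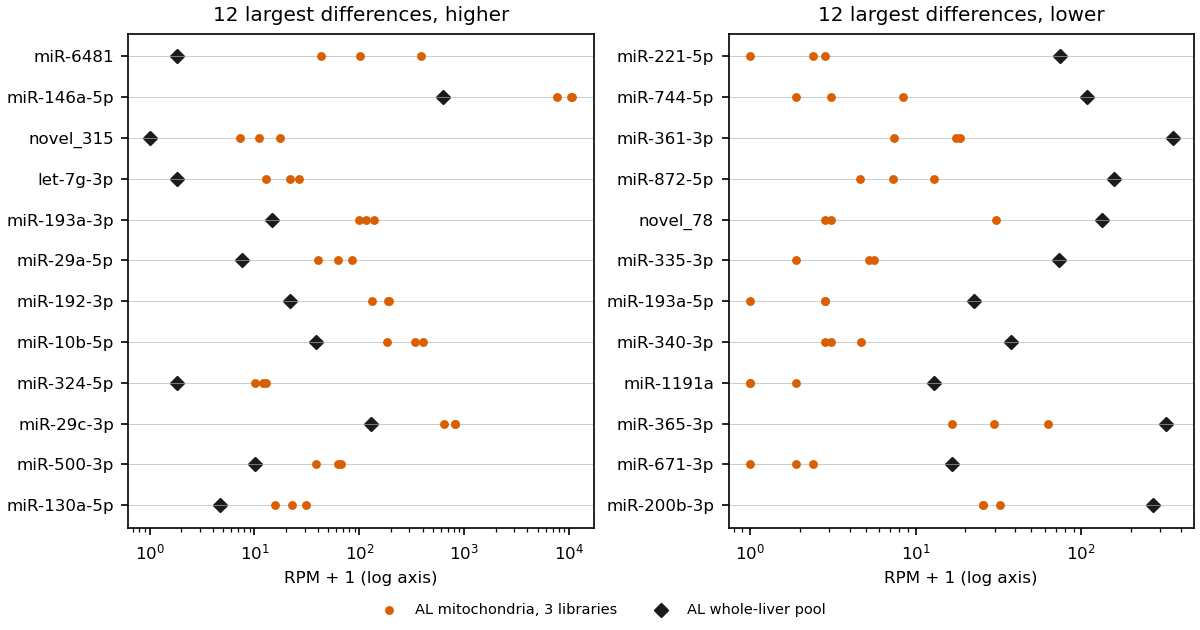
RPM + 1 on a log axis for the 12 miRNAs with the largest differences in each direction, with 1 orange point for each of the 3 AL mitochondrial libraries and a black diamond for the AL whole-liver pool. In every row the 3 mitochondrial points lie on 1 side of the pool. miR-6481 and novel_78 show the widest spread between mitochondrial libraries.

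Of these 24 miRNAs, 23 passed without mitochondrial replicate 1, 20 without replicate 2 and 15 without replicate 3. None changed sign under an alternative.

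The arms of a hairpin come from the same precursor, and their plain ratio within a library does not depend on how libraries are scaled. The tested ratio adds 1 RPM to each arm, so for an arm with few reads it does depend on scaling and depth. Of 68 hairpins with both arms tested, 23 (33.8%) had a different ratio of 5p to 3p in mitochondria (limma, adjusted p below 0.05). The 5p arm gained in 12 (17.6%) and lost in 11 (16.2%). In 35 of the 68 hairpins the levels of the arms differed from the pool in opposite directions. This counts signs of any size, and small ones can turn with the scaling. It does not measure how many hairpins changed their arm balance. The limma estimate pooled the spread fully over hairpins, so each has the same SE of 0.71 on the log2 scale. The p-values of the arm ratios thus take no account of a hairpin's own spread or read depth. Shares below are of the reads of both arms, with exact 95% intervals for the pool that cover counting error only. The test rests on 1 pool, and 18 hairpins passed without replicate 3.

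The largest change was in miR-193a, at chr11:79711969-79712034 on the plus strand. The 5p arm made 61.2% of its reads in the pool (interval 49.99 to 71.6, 85 reads) and 1.85%, 1.32% and 0% in mitochondria, where 0 of 163 reads allows a share of up to 1.84%. The pool stood far above every mitochondrial library, and the ratio of 5p to 3p fell by 6.48 on the log2 scale (adjusted p = 4.24e-14). The level of each arm also passed on its own, 5p lower and 3p higher. In miR-221, at chrX:19146294-19146388 on the minus strand, the 5p share was 17.0% in the pool (interval 14.8 to 19.5) and 0.419%, 0% and 0.299% in mitochondria, where 0 of 385 reads allows up to 0.779%. The ratio fell by 5.51 (adjusted p = 4.71e-11), with the 5p arm lower and the 3p arm not past the test.

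let-7g, at chr9:106178840-106178927 on the plus strand, had 5p as the main arm in every library. Its 3p arm made 0.00238% of the reads in the pool and 0.0647%, 0.325% and 0.231% in mitochondria. All mitochondrial shares lay above the pool (ratio of 5p to 3p lower by 5.09, adjusted p = 7.92e-10), and the levels of both arms passed on their own: let-7g-5p, a repressor of growth genes, fell by 1.66 on the log2 scale (adjusted p = 0.0434), a call lost with DESeq2 size factors (0.134) and without replicate 2 or 3. miR-192 had a 3p share of 0.0273% in the pool and 0.229%, 0.346% and 0.382% in mitochondria (ratio lower by 3.46, adjusted p = 2.03e-05). The 3p share of miR-30d rose from 0.113% to 1.07%, 1.44% and 1.37% (ratio lower by 3.46, adjusted p = 2.03e-05).

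In miR-335, at chr6:30741299-30741396 on the plus strand, the change went the other way. The 5p arm made 41.6% of the reads in the pool (interval 36.0 to 47.4) and 96.4%, 98.9% and 94.7% in mitochondria. No mitochondrial library came near the pool, and the ratio was higher by 5.05 (adjusted p = 8.09e-10). In miR-361, at chrX:113074824-113074893 on the minus strand, the 5p share was 12.0% in the pool (interval 10.1 to 14.2) and 73.9%, 69.6% and 60.9% in mitochondria (ratio higher by 3.89, adjusted p = 1.95e-06). In miR-151 it was 20.1% in the pool and 78.7%, 72.7% and 77.0% in mitochondria (ratio higher by 3.64, adjusted p = 8.29e-06).

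miR-872 had a 5p share of 93.9% in the pool and 50%, 22.2% and 26.5% in mitochondria, where its arms had only 18 to 34 reads (ratio lower by 4.78, adjusted p = 4.65e-09). miR-671 had 37.7% in the pool and 100%, 94.7% and 90.0% in mitochondria, on 5, 19 and 20 reads (ratio higher by 3.40, adjusted p = 2.66e-05). Counting all hairpins, the arm with more reads in the pool was the arm with fewer in all 3 mitochondrial libraries for 9: miR-151, miR-193a, miR-335, miR-338, miR-361, miR-362, miR-671, miR-674 and miR-3065. Of these, miR-362 did not pass (adjusted p = 0.407), and miR-338 and miR-3065 are antisense names that share reads. For 4 hairpins (let-7g, miR-30d, miR-151 and miR-193a) both arms passed on their own in opposite directions. With DESeq2 size factors the level calls of let-7g-5p, miR-151-3p and miR-193a-5p were lost (adjusted p = 0.134, 0.0896 and 0.0562).

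**Figure D3:**
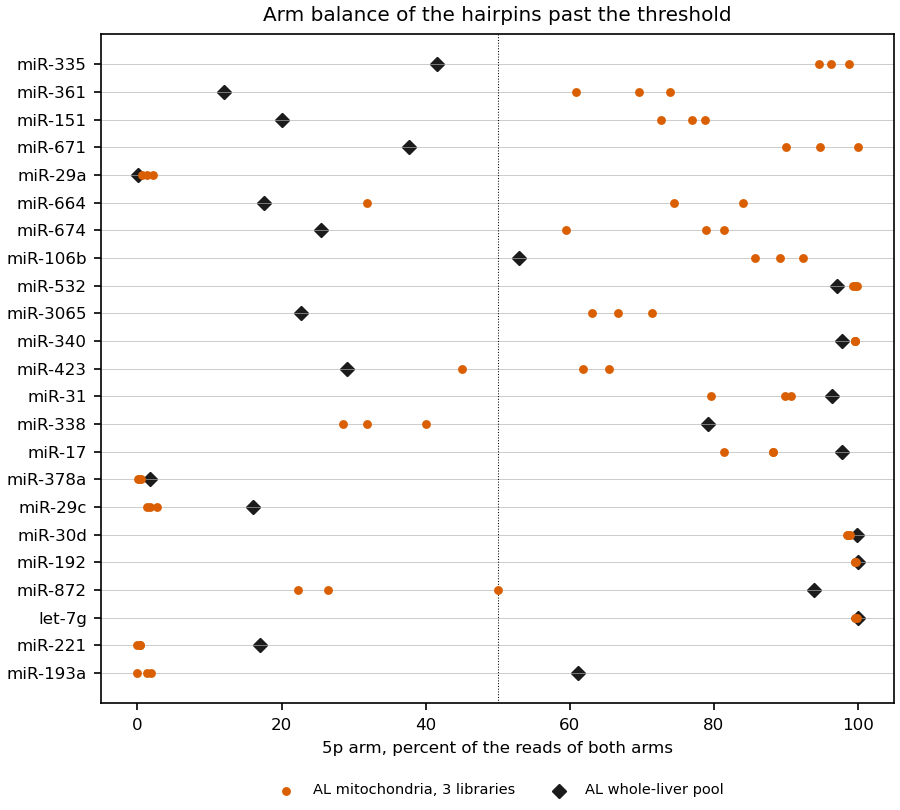
Share of the 5p arm in the reads of both arms, in percent, for the 23 hairpins whose arm ratio passed the test, ordered by the difference, with 3 AL mitochondrial libraries in orange and the AL whole-liver pool as a black diamond. The dotted line marks 50%. miR-335, miR-361 and miR-151 move from the left of the line to its right and miR-193a from its right to the far left, while the shares of let-7g, miR-192 and miR-30d move by at most a few percent near 100%.

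miRNAs with the same seed can bind the same target sites. Among 30 seeds shared by at least 2 tested miRNAs (85 miRNAs in all), none had members that passed in opposite directions. Only a seed with at least 2 members past the test could have shown this, and most seeds had fewer. The count is therefore not a result about seeds. The median distance between the highest and the lowest log2 difference within a seed was 1.49. The widest was 4.11, between miR-181c-5p (1.25) and miR-181d-5p (-2.86), neither of which passed.

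Within the miR-146 pair, miR-146b-5p differs from miR-146a-5p by G18A and U21C (positions counted from 1 at the 5′ end). It had 167 RPM in the pool and 229, 311 and 382 RPM in mitochondria and did not pass (log2 difference 0.85, adjusted p = 0.214). The ratio of miR-146a-5p to miR-146b-5p was 3.78 in the pool and 33.2, 33.5 and 28.1 in mitochondria. miR-29a-3p and miR-29c-3p differ by C10U, and the ratio of 29a to 29c was 40.9 in the pool and 8.31, 6.20 and 5.396 in mitochondria. miR-10a-5p and miR-10b-5p differ by U12A, and the ratio of 10a to 10b was 228 in the pool and 57.8, 32.5 and 37.7 in mitochondria. In each pair the mitochondrial ratios lay on the same side of the pool. How the authors' mapping divided reads with mismatches between such names is not given in the sources used here, and its part in these ratios was not tested.

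miR-30a-5p and miR-30d-5p differ by U12C. miR-30d-5p fell by 1.83 on the log2 scale (adjusted p = 0.00856) while miR-30a-5p had -0.11. Over 58 pairs with the same seed and at most 3 substitutions, the median absolute difference between the log2 values was 0.90, and over all 38503 pairs of tested annotated miRNAs it was 1.38. A difference above 2 was found in 9 (15.5%) and in 33.4% of these pairs.

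Hairpins within 10 kb of each other on 1 strand often come from 1 transcript. There were 19 such clusters with 61 tested miRNAs, and 11 held a miRNA that passed. Of all tested miRNAs 25.3% passed, and each cluster held several, so this count is not a result about clusters. In the miR-106b-25 cluster, inside Mcm7 at chr5:138165321-138165818 on the minus strand, miR-25-3p, miR-93-5p and miR-106b-3p fell (by 2.23, 1.41 and 2.01), while miR-106b-5p had 0.81. In the miR-17-92 cluster, inside Mir17hg on chromosome 14, miR-17-5p and miR-20a-5p fell (by 1.83 and 3.01). The other counted members, miR-17-3p and miR-19a-3p, had 0.87 and 0.45 and did not pass. miR-19b-3p, with a hairpin in Mir17hg and another on chromosome X, was higher (1.90) but was not counted in the clusters. miR-20a-5p had 1221 RPM in the pool and 322, 104 and 102 RPM in mitochondria. The pool lay above all 3 (adjusted p = 0.00870), and the call was lost without replicate 2 or 3. Among the miRNAs counted, 2 clusters had calls in both directions. On chromosome 19 miR-192-3p was higher and miR-194-2-3p lower (-1.90), and in the Clcn5 intron on chromosome X miR-500-3p was higher and miR-532-3p lower (-2.66). With DESeq2 size factors miR-194-2-3p and miR-532-3p no longer passed (adjusted p = 0.0586 and 0.0877), so neither cluster then had calls in both directions. The calls of miR-17-5p, miR-93-5p and miR-106b-3p were also lost there (0.0974, 0.101 and 0.0877).

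The miRNA lists are described by counts, beside the shares of all tested miRNAs given above. In bulk RNA, fewer cells of a type and less RNA per cell cannot be told apart. The hepatocyte list (miR-122, miR-192, miR-194, miR-148a and others) had 14 tested members, with 1 higher and 2 lower and a median of -0.28. Its summed level was 500449 RPM in the pool and 609549 to 666687 RPM in mitochondria. miR-122-5p alone made 254251 RPM of it in the pool and a mean of 415777 RPM in mitochondria. miR-192-5p went the other way, with 76773 RPM and a mean of 53938 RPM. The 4 tested names of endothelial miR-126 had a median of -0.53, and miR-126a-3p fell by 1.396 (adjusted p = 0.0266; lost with DESeq2 size factors at 0.0974, and without replicate 2 or 3). Its RPM was 17969 in the pool and 6880, 8184 and 5653 in mitochondria. In the bile duct list 4 members were tested, miR-200b-3p passed, and the summed level was 769 RPM in the pool against 242 to 427 RPM.

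Among 9 tested members of the stellate cell and fibroblast list only miR-143-3p passed, and miR-199a-5p and miR-145a-5p had -1.10 and -1.02. None of 7 tested members of the leukocyte and Kupffer cell list passed (limma, 1 at unadjusted p below 0.05, 0 by edgeR and 0 by DESeq2). The summed level of this list was 640 RPM in the pool and 662 to 744 RPM in mitochondria. These values depend on how the list was drawn: it held miR-146b but not miR-146a. miR-146a-5p, which was higher, was counted in the list of miRNAs named in mitochondria by earlier work. None of the 5 erythroid members passed (limma, 0 at unadjusted p below 0.05, 0 by edgeR and 0 by DESeq2), and miR-451a, the defining miRNA of red cells, had 26.3 RPM in the pool and 33.2, 25.6 and 23.2 RPM in mitochondria. The groups overlap there. Of the 5 names, miR-486a-3p, miR-486a-5p and miR-486b-3p have nearly the same reads (90, 94 and 89 over the AL libraries). They are thus not separate measures. The muscle list had miR-1a-3p at 24.3 RPM in the pool and a mean of 77.4 RPM in mitochondria without passing, 2 arms of neuronal miR-338 were tested and did not pass (limma, 1 at unadjusted p below 0.05, 1 by edgeR and 0 by DESeq2), and no pancreas miRNA was abundant enough to be tested. The part of these cell types in the differences above was not tested.

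Of 25 tested members of a list of miRNAs named in mitochondria by earlier work, 3 were higher (miR-146a-5p, miR-378a-3p and miR-130a-5p) and 3 lower (miR-21a-5p, miR-221-5p and miR-671-3p). That is 24.0% of the list, beside 25.3% of all tested miRNAs, and the median was 0.08. miR-181c-5p, a member reported to act on the mitochondrial messenger RNA of mt-Co1, had 3.70 RPM in the pool and 14.8, 10.1 and 7.03 RPM in mitochondria. All 3 libraries were above the pool, but it did not pass (log2 difference 1.25, adjusted p = 0.191). miR-1a-3p, another such member, had a log2 difference of 1.15.

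Of 30 tested members of the lipid and glucose metabolism list, 4 were higher (miR-22-3p, miR-29a-5p, miR-143-3p and miR-378a-3p) and 4 lower (miR-27b-3p, miR-30c-5p, miR-30c-2-3p and miR-335-3p), with a median of -0.23. miR-27b-3p, a regulator of lipid genes, fell from 14414 to 4254 ± 1070 RPM (SD, n = 3; by 1.79, adjusted p = 0.0139), and this call was lost without replicate 2 or 3. With DESeq2 size factors the call of miR-30c-5p was lost (adjusted p = 0.101). miR-33-5p, which lies in Srebf2 and represses the cholesterol exporter ABCA1, had -0.30 and did not pass.

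Among families, the miR-17-92 clusters had 10 tested members, with 5 lower and 1 higher (miR-19b-3p, 1.90) and a median of -1.62. edgeR called 5 of the 10 and DESeq2 3. The miR-10, miR-99, miR-100 and miR-125 relatives had 10, with 4 lower and 1 higher and a median of -0.75. miR-99a-5p, which represses mTOR, had 6850.3 RPM in the pool and 1390.2, 1451 and 1325 RPM in mitochondria. Its sequence differs from that of miR-100-5p by A16U, and miR-100-5p had 2089 RPM in the pool and 504, 587 and 517 RPM in mitochondria. Both were low in all 3 mitochondrial libraries, with log2 differences of -2.30 and -1.96 (adjusted p = 0.00328 and 0.00856). miR-125a-5p and miR-125b-5p fell by 2.83 and 2.70 (adjusted p = 0.00328 for each). These 4 calls held with DESeq2 size factors, at adjusted p from 0.0170 to 0.0319, and were lost without replicate 3, at 0.0800 to 0.137.

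The let-7 family had 15 tested members, with let-7g-3p higher, let-7e-5p (-1.94) and let-7g-5p lower and a median of -0.41. The miR-30 family had 11, with 1 higher and 3 lower, and the miR-29 family 5, with 2 higher and none lower and a median of 1.07. Of the miR-15, miR-16 and miR-195 family 10 were tested, with miR-15a-5p (1.52) and miR-497a-5p (1.93) higher and miR-322-3p lower (-1.59). None of 5 miR-181 members passed (limma, 2 at unadjusted p below 0.05, 1 by edgeR and 0 by DESeq2), and of 9 members of the miR-23, miR-27 and miR-24 clusters only miR-27b-3p passed. Of 6 miRNAs made without Drosha or from snoRNAs, miR-484 fell (by 2.93), and of 6 from the Dlk1-Dio3 region miR-411-5p fell (by 2.62). With DESeq2 size factors the calls of let-7e-5p, miR-322-3p and miR-411-5p were lost (adjusted p = 0.0732, 0.0993 and 0.105). With these factors the medians of the hepatocyte, lipid and glucose, miR-30 and Dlk1-Dio3 lists turned positive, at 0.05, 0.08, 0.23 and 0.06. So did that of the stellate cell and fibroblast list, from -0.0009 to 0.33.

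**Figure D4:**
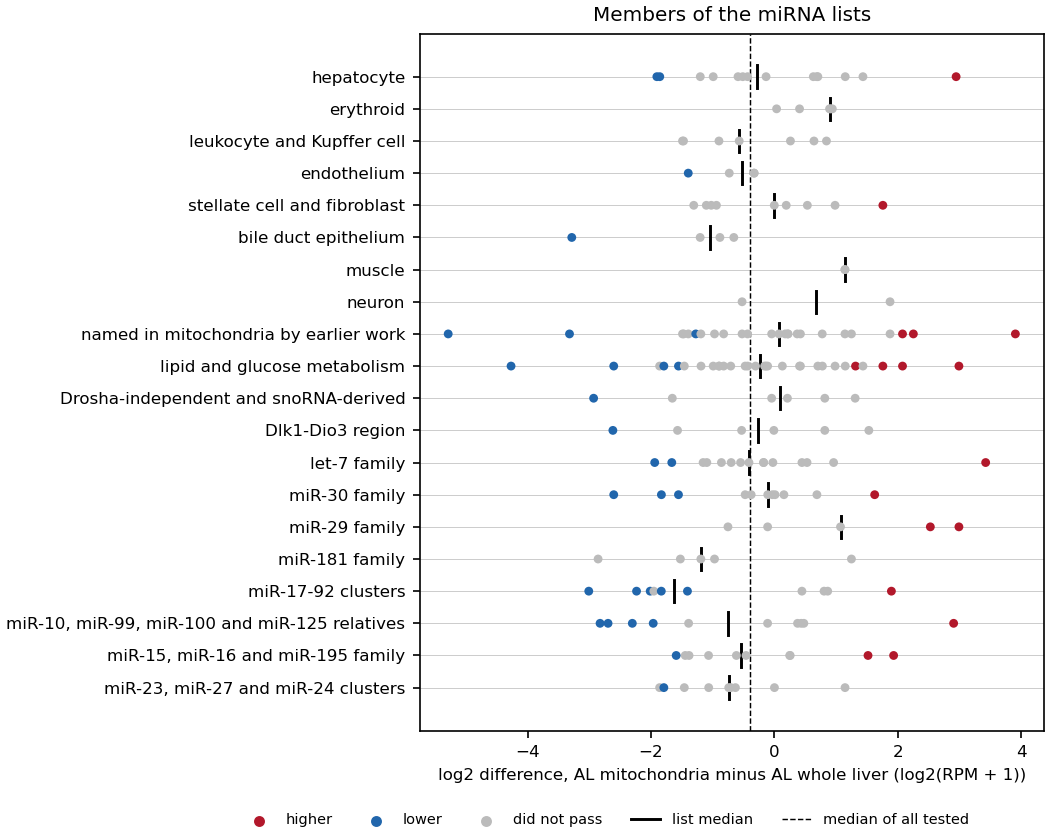
Log2 difference between AL mitochondria and the AL whole-liver pool for each tested member of 20 miRNA lists, 1 point per miRNA, with a short line at the list median and a dashed line at the median of all tested miRNAs (-0.39). Red and blue points passed the test. The list of the miR-17-92 clusters has its median furthest to the left of the dashed line, at -1.62, and most lists hold points on both sides of it.

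The mature sequences are described without a test. The median length was 22 bases among miRNAs higher, lower and all tested, and the median GC content was 50%, 47.6% and 45.8%. The first base was U in 29.2% of the 24 that were higher, 51.1% of the 47 that were lower and 46.6% of all tested, and A in 37.5%, 21.3% and 24.9%. The last base was U in 25%, 25.5% and 33.1%. Of the tested names, 18 also match other annotated small RNAs, and 21 names in 12 pairs have nearly the same reads as a partner, none of which passed.

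The CR libraries, which entered only some of the alternatives above, hold the same contrast in mice fed 20% less for 1 week and 40% less for 11 weeks. All 24 miRNAs that were higher and all 47 that were lower under AL had the same sign there, against 244 of 281 (86.8%) of all tested miRNAs. All 3 CR mitochondrial libraries lay on the same side of the CR pool for 23 of the 24 and 45 of the 47. The median difference of the 24 was 2.20 under AL and 2.00 under CR, and that of the 47 was -2.54 and -2.13. miR-146a-5p had 390 RPM in the CR pool and a mean of 3600 RPM in CR mitochondria (log2 difference 3.17). In a fit over all 8 libraries (limma) no miRNA had a fraction difference that depended on diet at an adjusted p below 0.05, with 3 at unadjusted p below 0.05.

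The ratio of the arms had the same sign under CR in all 23 hairpins that passed and in 57 of 68. In miR-193a the 5p share was 37.6% in the CR pool and 0.840%, 0.474% and 0.500% in CR mitochondria. In miR-335 it was 60.1% in the CR pool and 93.8%, 92.6% and 98.1% in CR mitochondria. In both hairpins the mitochondrial shares lay on the same side of the pool as under AL, but the main arm of the CR pool was already the one that led in mitochondria. In miR-361 the 5p share was 9.61% in the CR pool and 81.5%, 53.4% and 53.8% in CR mitochondria, so the main arm was again the other one.

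**Figure D5:**
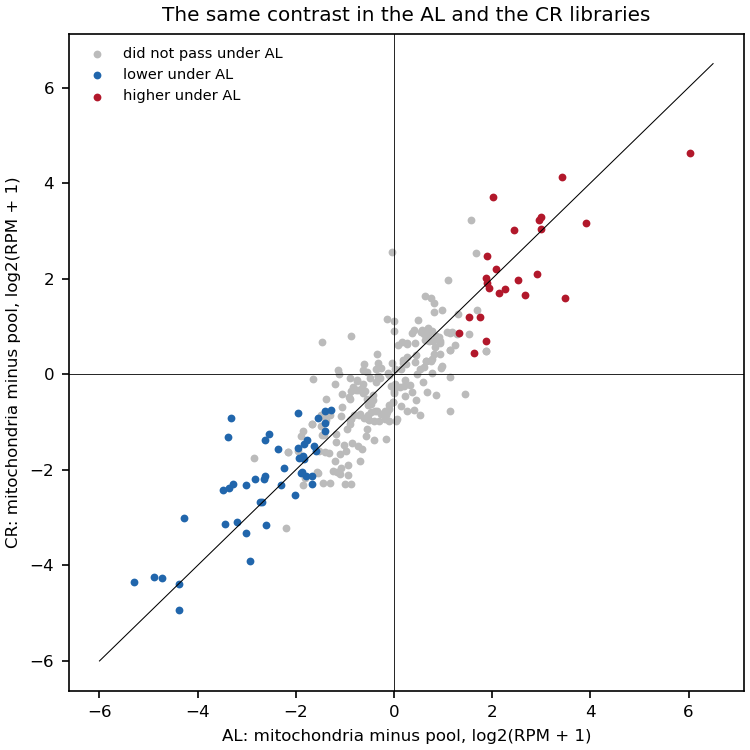
Log2 difference between mitochondria and the whole-liver pool under AL (x axis) and under CR (y axis) for the 281 tested miRNAs, 1 point each, on log2(RPM + 1). The 24 red and 47 blue points passed under AL and all lie in the quadrants of equal sign. The line marks equal differences.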

How the data were processed

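The authors deposited 1 table per library with RPM of the reads assigned to miRNA names (the columns say tpm but sum to 1000000), names at 0 left out. Reads were mapped with Bowtie to mm9, per the submitters' processing notes. Versions, mismatch and multiple-hit rules and strand use are not given in the sources used here. All deposited RPM values were whole multiples of 1 read (100% within 0.01 read), so reads were recovered by division.

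miRNAs with a mean of the pool and the mitochondrial mean of at least 5 RPM were tested with limma-trend (limma 3.58.1, R 4.3.3) on log2(RPM + 1), with Benjamini-Hochberg adjustment at 0.05. Fold changes on that scale understate those of low miRNAs. A miRNA near 0 in 1 fraction could enter only through its level in the other, so a difference was built into its selection. The pool is assumed to vary like the mitochondrial libraries. Arm ratios were tested with limma on log2(5p + 1) minus log2(3p + 1). edgeR 4.0.16 (quasi-likelihood test, TMM) called 81 miRNAs and DESeq2 1.42.0 called 51 on recovered reads, and other scalings, pseudocounts, filters and left-out replicates were tried. The fitting code was tested on simulated data (scipy 1.17.1 and pandas 2.3.3 under Python 3.11.15; plots by matplotlib 3.10.9).

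The members, the 21 lists and the rules were chosen with earlier results of these data known. Named were the 12 largest differences in each direction with all 3 libraries on 1 side, the 6 most abundant per fraction, up to 4 per list by p and the 10 hairpins with the smallest p; others were named after their values were seen. Of 823 annotated names, 641 matched the RefSeq table (636 with the same sequence); hosts come from GENCODE M21 (GRCm38). Positions are from RefSeq, not from the authors' alignment. A mitochondrial match means that the whole mature sequence lies in a GENCODE transcript.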

Additional observations from a re-analysis of the deposited data

How the results depend on the processing

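The number of miRNAs past the threshold (71, with 24 higher and 47 lower) moved to 45 with DESeq2 size factors (19 lower), to 142 with no filter (13 higher and 129 lower, 18 of them shared with the 71 in the same direction), to 41 with a filter of 1 RPM in 3 of 8 libraries (23 lower) and, with DESeq2 on reads, to 21 lower. RPM without miR-122 gave 35 higher and 33 lower, TMM factors 27 and 34, pseudocounts of 0.25 and 5 RPM 24 and 36 and 26 and 58, and edgeR 30 and 51. Leaving out each mitochondrial replicate in turn gave 17 to 130 calls, 5 to 42 higher and 12 to 88 lower; the cause was not tested, and the 2 libraries left carry all of the spread. With a filter of 20 RPM, 37 hairpins were tested and 13 passed (7 higher, 6 lower). Without replicates in turn, 9 to 17 hairpins had a lower 5p share, and 18 to 31 passed in all.

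Small differences turned in sign. miR-148a-3p had 0.20 with DESeq2 size factors, 0.12 with TMM factors, 0.22 without miR-122, 0.17 with edgeR, 0.25 with DESeq2 and -0.32 to 0.090 with 1 replicate left out. miR-30a-5p had 0.23, 0.14, 0.25, 0.16 and 0.24 under these scalings and tools. miR-126a-5p and its antisense partner miR-126b-3p each had 0.0093 with DESeq2 size factors, 0.026 without miR-122, 0.058 with edgeR and 0.15 with DESeq2. With 1 replicate left out, miR-144-3p had -0.0017 to 0.93 and miR-671-5p -0.26 to 0.56.

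No paired analysis was possible because the pool is 1 library with no replicate number that ties it to a mitochondrial library. Depth limits the lowest miRNAs: with 2 reads in the pool (miR-6481, let-7g-3p, miR-324-5p) or a few in mitochondria, the size of a difference is known no better than the counting intervals given. These intervals rest on summed reads and leave out the spread between mitochondrial libraries and any variation of the pool.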
